A study of Arabidopsis thaliana with 4 samples.

Results

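The genes described are 45 members of the *SAUR* (*SMALL AUXIN UP RNA*) family of Arabidopsis, out of 33854 genes with an expression value. They were taken from a list of 46 family members, most of which stand in tandem clusters on chromosomes 1 to 5. The listed *SAUR30* (AT5G53590) was not analysed here. Of the 45 genes, 32 lay in 6 tandem clusters and 13 were dispersed. The list is a fixed set of gene identifiers from the family, drawn up with earlier results of these data known, and 33 other genes with a *SAUR* name in the reference are not on it. For the comparisons the members were selected on their level, as those whose FPKM (fragments per kilobase of transcript, scaled to all mapped fragments) averaged 0.5 or more. The mean levels are therefore given as a description. This minimum was reached by 43 of the 45 genes, with *SAUR10* just inside at 0.758 FPKM and *SAUR25* just outside at 0.198 FPKM. *SAUR2* was listed at 0 in all 4 libraries.

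Poly-A RNA of 12-day-old seedlings was sequenced as 4 libraries, 2 of each genotype, numbered as replicates 1 and 2. The wild type was the accession Col-0. The other genotype, *35S-COLDAIR* (the overexpressor), was in the Col-0 background and transcribed *COLDAIR*, a noncoding RNA of the first intron of the flowering repressor gene *FLC*, from the constitutive *CaMV 35S* promoter. The study sequenced it from 1 transgenic line, *35S-COLDAIR #3*. All seedlings were raised at 22 °C in long days (16 h of light, 8 h of darkness) on Murashige and Skoog medium, without a further treatment. The labels do not say how many seedlings were pooled in a library or what libraries of the same number shared. The p-values therefore measure the spread between these libraries, which may be technical. Wherever a pair of values is given for a genotype, replicate 1 comes first.

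SAUR proteins are small proteins made from short-lived mRNAs, and many of their genes respond to auxin within minutes. Auxin binds the TIR1 and AFB receptors, which frees ARF transcription factors to activate the genes, and the growth regulators of the PIF and BZR1 families act on many of the same promoters. Several SAUR proteins bind and inhibit the PP2C.D phosphatases, which otherwise switch off the proton pumps of the plasma membrane, so that SAUR proteins keep the pumps active, the cell wall acid and the cell able to expand. In seedlings the family is known for the elongation of hypocotyls and the expansion of cotyledons and leaves.

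The members were short genes with a coding length between 261 and 513 bases. Their coding sequence lay in 1 exon in all 45 genes. The *SAUR19* cluster (AT5G18010 to AT5G18080, chromosome 5, *SAUR19* to *SAUR24*) is shown first because its 6 genes were the most alike of any cluster. The first 60 coding bases of each gene, read from the RefSeq TAIR10.1 genome and its annotation, are given 5′ to 3′ with the 12 positions at which the 6 genes are not all alike in capitals.
SAUR19 (chr5:5963246-5963305, minus strand): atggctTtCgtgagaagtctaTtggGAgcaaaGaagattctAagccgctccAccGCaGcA
SAUR20 (chr5:5966521-5966580, minus strand): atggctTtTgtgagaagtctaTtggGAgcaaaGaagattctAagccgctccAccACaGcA
SAUR21 (chr5:5968527-5968586, plus strand): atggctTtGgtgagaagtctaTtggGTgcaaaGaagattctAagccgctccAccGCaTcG
SAUR22 (chr5:5974904-5974963, minus strand): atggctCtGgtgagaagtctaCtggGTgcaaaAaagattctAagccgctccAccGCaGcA
SAUR23 (chr5:5976030-5976089, plus strand): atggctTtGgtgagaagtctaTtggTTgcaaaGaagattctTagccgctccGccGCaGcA
SAUR24 (chr5:5983840-5983899, plus strand): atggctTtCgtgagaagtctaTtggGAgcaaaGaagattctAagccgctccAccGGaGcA

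Over the whole coding sequence, pairs within the *SAUR19* cluster were between 87.7% and 95.2% identical, with a median of 91.2% over 15 pairs. *SAUR19* and *SAUR24* formed the most similar pair, and *SAUR19* and *SAUR21* shared an unbroken run of 86 bases. The *SAUR26* cluster (AT3G03820 to AT3G03850, chromosome 3) came next, with a median identity of 82.8% over 6 pairs. In the *SAUR61* cluster (AT1G29420 to AT1G29510, chromosome 1) the median was 79.4% over 28 pairs, and *SAUR63* and *SAUR67* had 91 bases in a row in common. The genes of the other clusters were less alike, with medians between 57.0% and 62.0%, against 51.4% for pairs from different places in the genome. In total, 5 of 990 pairs shared at least 50 coding bases in a row, and these pairs involved *SAUR19*, *SAUR21*, *SAUR23*, *SAUR24*, *SAUR63* and *SAUR67*. How reads that map to several places were counted is not given in the sources used here. The levels of these 6 genes are therefore uncertain relative to one another. The cut of 50 bases does not bound this uncertainty, as *SAUR20* and *SAUR24*, and *SAUR62* and *SAUR67*, shared runs of 49 bases. The reference attaches the name *SAUR68* to 2 genes, and here *SAUR67* denotes AT1G29510 and *SAUR68* denotes AT1G29490.

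The 250 bases before the annotated start of transcription are shown for 4 members: *SAUR15*, also called *SAUR-AC1* and long used as an auxin-response gene; *SAUR4*, which had the largest genotype difference; and *SAUR63* and *SAUR78*, which were higher in replicate 2 of both genotypes. Capitals mark matches, on either strand, to the E-box CACATG (a site bound by PIF proteins), the auxin response element TGTCTC, the G-box CACGTG, the evening element AAAATATCT of clock-controlled promoters, or GGTCCC, a core of the distal element known from soybean *SAUR* genes and added to the search after promoters had been seen. The windows were read from RefSeq TAIR10.1.
SAUR15 (chr4:18125807-18126056, plus strand): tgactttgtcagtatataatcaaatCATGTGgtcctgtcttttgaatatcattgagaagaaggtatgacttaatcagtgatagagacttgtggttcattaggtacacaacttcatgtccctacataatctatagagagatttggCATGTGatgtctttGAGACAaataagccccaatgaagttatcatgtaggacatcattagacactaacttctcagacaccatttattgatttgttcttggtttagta
SAUR4 (chr4:16596390-16596639, plus strand): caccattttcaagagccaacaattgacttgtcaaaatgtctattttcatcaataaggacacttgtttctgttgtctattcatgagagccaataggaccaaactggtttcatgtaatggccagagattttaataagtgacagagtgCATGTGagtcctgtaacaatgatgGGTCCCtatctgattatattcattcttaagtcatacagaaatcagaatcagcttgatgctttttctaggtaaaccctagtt
SAUR63 (chr1:10305109-10305358, minus strand): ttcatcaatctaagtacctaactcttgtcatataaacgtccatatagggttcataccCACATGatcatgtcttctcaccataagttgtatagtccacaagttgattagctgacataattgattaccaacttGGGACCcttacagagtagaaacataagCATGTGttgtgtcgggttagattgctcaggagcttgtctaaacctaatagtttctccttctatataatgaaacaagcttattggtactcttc
SAUR78 (chr1:27265807-27266056, minus strand): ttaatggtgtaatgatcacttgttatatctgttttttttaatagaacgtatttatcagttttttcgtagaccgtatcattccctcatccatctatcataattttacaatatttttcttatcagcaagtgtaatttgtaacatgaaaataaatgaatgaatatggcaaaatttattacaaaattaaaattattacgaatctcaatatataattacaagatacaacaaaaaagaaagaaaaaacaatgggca

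The E-box CACATG was the commonest of these letters in the members' windows. It occurred in 27 of the 45 windows (60.0%), in 5 of the 33 windows (15.2%) of the other *SAUR* genes in the reference, and in 11.1% of the windows of all 27443 protein-coding genes. All 8 genes of the *SAUR61* cluster and all 4 of the *SAUR26* cluster held it, as did 3 of 4 in the *SAUR15* cluster, 4 of 7 in the *SAUR1* cluster, 3 of 6 in the *SAUR19* cluster, 1 of 3 in the *SAUR6* cluster and 4 of the 13 dispersed genes. Tandem copies descend from a common gene, so their matches are not independent. The soybean core GGTCCC was found in 8 members (17.8%), in 1 of the 33 other *SAUR* genes (3.0%) and in 2.8% of all windows. As it was searched for only after promoters had been seen, its share is a description only. Of the 8 members 7 were in tandem clusters, namely *SAUR61* to *SAUR66* of a single cluster and *SAUR4*, and *SAUR8* was dispersed. The auxin response element stood in 7 members (15.6%) and in 10.9% of all windows, and all 7 members were in tandem clusters. Windows were not trimmed at neighbouring genes. That of *SAUR7*, which held 3 auxin response elements, lies within *SAUR6* on the same strand. The window of *SAUR63* lies within AT1G29435 on the opposite strand. The G-box was found in *SAUR59* alone among the members, and in 6.5% of all windows. The evening element was in none of the 45 windows and in 2.4% of all windows. No match to a motif overlapped a match to another, and 15 members, among them *SAUR16*, *SAUR32*, *SAUR50* and *SAUR78*, held none of the letters searched. A match describes the letters and is not a measured binding site.

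**Figure D1:**
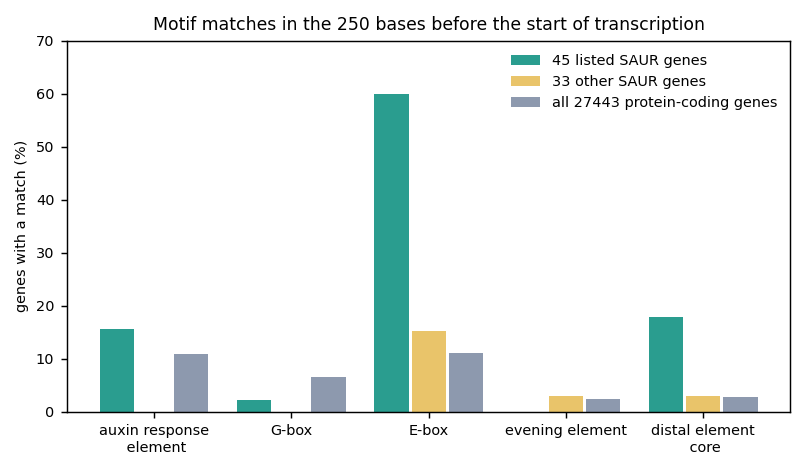
Share of genes, in percent, with at least 1 match to each motif in the 250 bases before the annotated start, on either strand, for the 45 members, the 33 other *SAUR* genes and all 27443 protein-coding genes. The E-box bar of the members stands at 60.0%, and the bars of the other *SAUR* genes and of all genes stand at 15.2% and 11.1%.

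The 4 libraries were of similar scale. Their FPKM values summed to between 928299.1 and 951939.8, between 22411 and 22623 genes were above 0, and the relative depth read from the steps of low values was 1.09 to 1.13 times higher in *35S-COLDAIR* than in Col-0 of the same number. The number of fragments behind a value is not in the tables, so no counting interval is given. The label check was the *FLC* mRNA, with 2.05 and 1.13 FPKM in Col-0 against 43.4 and 37.6 FPKM in the overexpressor. Leaf genes dominated, as in green seedlings, with a sum over 5 photosynthesis genes between 53800 and 58600 FPKM. The sum over 5 root genes was 49.7 and 59.5 FPKM in Col-0 against 50.5 and 41.2 FPKM in the overexpressor. It was thus uneven between the genotypes in replicate 2. The floral genes *AP3* and *PI* did not exceed 1.06 FPKM in any library. In bulk seedlings, fewer cells of a type and less RNA per cell cannot be told apart.

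Most of the members were clearly transcribed in seedlings. Of the 45 genes, 25 had a mean of at least 10 FPKM, 17 lay between 1 and 10 FPKM and 3 were under 1 FPKM. The median of the 43 compared members was 15 FPKM, against 12.7 FPKM over all 20142 genes that reached the same minimum and 1.68 FPKM over 22 other *SAUR* genes that did. The 5 highest members held 37.4% of the summed mean level. FPKM is a level per length of transcript, so these values can be set side by side between genes. Exceptions are the near-identical copies named above and the members described below that overlap another gene.

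*SAUR16* and *SAUR50*, both known for their induction by light in cotyledons, headed the order of levels. *SAUR16* had 82.1 and 77.3 FPKM in Col-0 against 96.3 and 75.2 FPKM in the overexpressor. *SAUR50* had 44.3 and 77 FPKM in Col-0 against 80.0 and 90.7 FPKM in the overexpressor. Their libraries overlapped, so the order of these neighbours is within their spread. *SAUR14*, next to *SAUR15* on chromosome 4, had 65.0 and 55.6 FPKM in Col-0 against 91.4 and 65.7 FPKM in the overexpressor. *SAUR78*, which binds ethylene receptors, had 34.1 and 86.2 FPKM in Col-0 against 57.0 and 89.2 FPKM in the overexpressor, the widest spread of the leading genes. These 4 genes overlapped with one another in level.

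In the *SAUR19* cluster, whose products are the best studied promoters of cell expansion in the family, *SAUR21* was the highest gene, with 55.9 and 53.6 FPKM in Col-0 against 53.6 and 57.5 FPKM in the overexpressor. All 4 libraries were close to one another. *SAUR20* followed at 37.2 to 42.7 FPKM, without overlap with *SAUR21*. The mean levels of *SAUR22*, *SAUR23*, *SAUR24* and *SAUR19* fell between 17.6 and 27 FPKM, and neighbours in this order overlapped. Because these coding sequences are so alike, the division of the signal among the 6 genes is less certain than its sum, which was 177 and 193 FPKM in Col-0 against 182 and 194 FPKM in the overexpressor.

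In the *SAUR61* cluster, whose members promote elongation of hypocotyls and of stamen filaments, *SAUR63* was the highest gene with a mean of 38.2 FPKM. *SAUR62*, *SAUR64*, *SAUR65*, *SAUR66* and *SAUR67* had means between 20.4 and 31.4 FPKM. *SAUR61*, at 1.15 to 2.31 FPKM, and *SAUR68*, at 0.917 to 1.61 FPKM, were well below them. *SAUR63* and *SAUR64* overlap AT1G29435 on the opposite strand, a gene not analysed here. Since the sources do not say whether strands were counted apart, reads of such partners cannot be separated. The reference places AT1G06257 opposite *SAUR61* in the same way.

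The *SAUR1* cluster (AT4G34750 to AT4G34810, chromosome 4) was the most uneven, with *SAUR50* at a mean of 73.0 FPKM and *SAUR2*, between *SAUR1* and *SAUR3* in the genome, listed at 0. In the *SAUR26* cluster, where natural variation between accessions alters growth in warmth, *SAUR29* led with 40.6 and 19.7 FPKM in Col-0 against 28.7 and 22.1 FPKM in the overexpressor, and the other 3 genes had means between 7.39 and 11.6 FPKM. In the *SAUR6* cluster (AT2G21200 to AT2G21220, chromosome 2), *SAUR6* led with a mean of 44.1 FPKM and its neighbour *SAUR7* had a mean of 6.63 FPKM. *SAUR6* and *SAUR7* overlap by 176 bases on the same strand, so reads of the shared stretch cannot be assigned to either gene. Among the dispersed genes, *SAUR78* and *SAUR32* had means of 66.6 and 44.7 FPKM and *SAUR59* of 16.3 FPKM, and the remaining 10 had means of at most 5.19 FPKM. The low dispersed genes include *SAUR36*, a promoter of leaf senescence, *SAUR71* and *SAUR72* of the *SAUR41* subfamily, and *SAUR9*, whose protein is among those known to bind PP2C.D phosphatases.

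**Figure D2:**
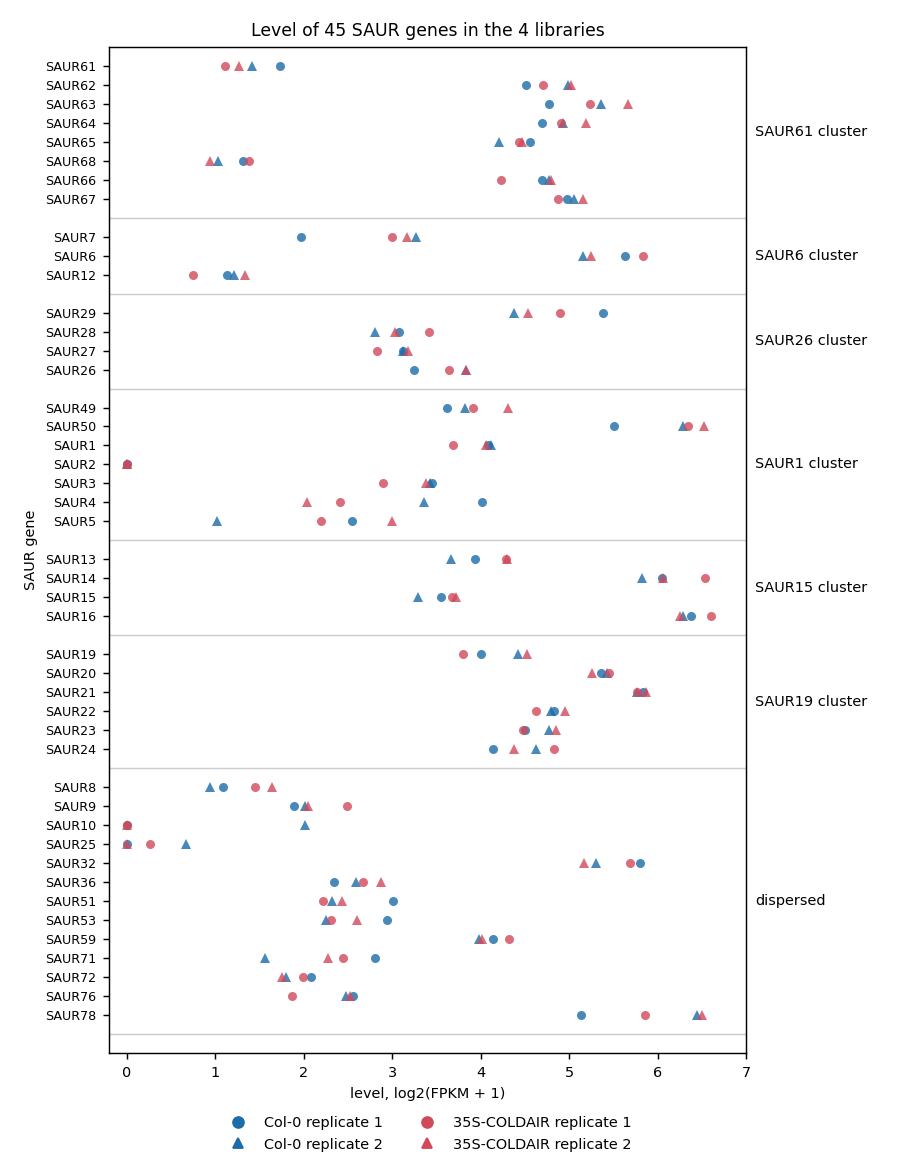
Level of each of the 45 members in the 4 libraries, as log2(FPKM + 1), ordered by cluster; blue marks are Col-0 and red marks *35S-COLDAIR*, circles replicate 1 and triangles replicate 2. *SAUR16*, *SAUR50*, *SAUR14* and *SAUR78* stand farthest to the right, *SAUR2* at 0, and *SAUR4* is the gene whose red marks lie well to the left of its blue marks.

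The first comparison asked whether *SAUR* levels differed in the *COLDAIR* overexpressor. On average they differed little. Differences are in log2(FPKM + 1), *35S-COLDAIR* minus Col-0, tested with limma over all 20142 genes with Benjamini-Hochberg adjustment. No member passed an adjusted p of 0.05 (0 of 43; background 0.00993% of tested genes), and 3 members had an unadjusted p under 0.05 from limma (background 2.59%). The test had no replicate block, so differences between the replicates entered its error, and it called very few genes of any kind. *FLC*, at a log2 difference of 4.02 (standard error 0.206, adjusted p = 0.0835 from limma), did not pass it either, so a gene could differ by that much between the genotypes without being called. The median log2 difference was 0.07 over the members and 0.00 over all tested genes, with a range from -1.46 to 0.81 among the members. In size, without sign, the median was 0.22 in the members, 0.22 in the other *SAUR* genes and 0.09 in all tested genes. A log2 difference of at least 0.5 in size was reached by *SAUR4*, *SAUR5*, *SAUR8*, *SAUR10* and *SAUR50*, which are 5 of the 43 members (background 2.43%). *SAUR10* counts here through a single library, which also brought it past the minimum level.

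*SAUR4*, in the *SAUR1* cluster, had the largest genotype difference of the members. It had 15.2 and 9.23 FPKM in Col-0 against 4.30 and 3.1 FPKM in the overexpressor. Both *35S-COLDAIR* libraries were below both Col-0 libraries, and the gene was lower in replicate 2 of each genotype. Col-0 averaged 12.2 ± 4.22 FPKM and the overexpressor 3.70 ± 0.849 FPKM (SD, n = 2 each). The log2 difference was -1.46 (standard error 0.272), with -1.61 in replicate 1 and -1.32 in replicate 2. Its unadjusted p from limma was 0.00412 and its Benjamini-Hochberg adjusted p from limma was 1.0, so the gene was not called. Dropping any single library left the difference between -1.80 and -1.13. The neighbours of *SAUR4* in the array did not share its size of difference, with -0.30 for *SAUR3* on one side and 0.81 for *SAUR5* on the other.

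*SAUR5* had 4.83 and 1.03 FPKM in Col-0 against 3.56 and 6.99 FPKM in the overexpressor. Its log2 difference of 0.81 (standard error 0.587) came from opposite signs, -0.35 in replicate 1 and 1.98 in replicate 2, and the genotypes overlapped. When single libraries were dropped, it lay between 0.05 and 1.57. *SAUR50* had a log2 difference of 0.54 (standard error 0.277, 95% interval from -0.20 to 1.27), which lay between 0.14 and 0.93 when single libraries were dropped. Its Col-0 libraries lay further apart than its genotype means, which were 60.6 ± 23.1 FPKM for Col-0 and 85.3 ± 7.55 FPKM for the overexpressor (SD, n = 2 each). *SAUR49*, the next gene in the array, had 11.3 and 13.1 FPKM in Col-0 against 14.1 and 18.8 FPKM in the overexpressor, a log2 difference of 0.39 (standard error 0.169).

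*SAUR8* had 1.12 and 0.917 FPKM in Col-0 against 1.73 and 2.11 FPKM in the overexpressor. Both *35S-COLDAIR* libraries were above both Col-0 libraries, with a log2 difference of 0.53 (standard error 0.161, unadjusted p = 0.0254 and adjusted p = 1.0 from limma). It overlaps AT2G16575 on the opposite strand, which was at 0.386 FPKM in replicate 2 of Col-0 and at 0 in the other 3 libraries. *SAUR10*, a branching and growth gene that the flowering regulator FRUITFULL represses, was at 3.03 FPKM in replicate 2 of Col-0 and listed at 0 in the other 3 libraries. Its log2 difference of -1.01 rests on that library and is 0.00 without it. The place of *SAUR10* among the compared members rests on the same library.

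The *SAUR15* cluster (AT4G38825 to AT4G38860, chromosome 4) was the cluster in which all members had a positive genotype difference. *SAUR13* had 14.3 and 11.7 FPKM in Col-0 against 18.5 and 18.6 FPKM in the overexpressor, a log2 difference of 0.49 (standard error 0.122, unadjusted p = 0.0129 and adjusted p = 1.0 from limma). *SAUR14* had a log2 difference of 0.36 (standard error 0.186). *SAUR15* had 10.7 and 8.81 FPKM in Col-0 against 11.8 and 12.2 FPKM in the overexpressor, a log2 difference of 0.28 (standard error 0.123). These 3 genes did not overlap between the genotypes, whereas *SAUR16*, at 0.09 (standard error 0.138), did. Summed over the cluster the levels were 172 and 153 FPKM in Col-0 against 218 and 172 FPKM in the overexpressor, so replicate 1 of Col-0 and replicate 2 of the overexpressor did not differ in their sum. None of the 4 genes passed the threshold, and the gene opposite *SAUR13*, AT4G38820, was listed at 0 in all 4 libraries.

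The *SAUR19* cluster showed the opposite picture. The log2 differences of its 6 genes lay between -0.06 and 0.22, and none of the 6 had the same sign in both replicates. For *SAUR21* the difference was 0.02 with a 95% interval from -0.19 to 0.23, and for *SAUR20* it was -0.04 with an interval from -0.30 to 0.22. In the *SAUR61* cluster the differences ran from -0.39 for *SAUR61* to 0.39 for *SAUR63*, with a median of 0.04, and that of *SAUR63* lay between 0.10 and 0.68 when single libraries were dropped. In the *SAUR26* cluster they lay between -0.16 and 0.28, and in the *SAUR6* cluster between -0.13 and 0.46.

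Counted by library, 12 of the 43 members had no overlap between the genotypes, which was near the background of 29.1%. Of these, *SAUR8*, *SAUR9*, *SAUR13*, *SAUR14*, *SAUR15*, *SAUR36*, *SAUR49* and *SAUR50* were higher in *35S-COLDAIR* (8 members, background 14.8%) and *SAUR1*, *SAUR3*, *SAUR4* and *SAUR61* were lower (4 members, background 14.3%). The senescence gene *SAUR36* was among the steadiest of these, with 4.06 and 5.0 FPKM in Col-0 against 5.35 and 6.35 FPKM in the overexpressor. Taken within replicates, 16 members were higher in *35S-COLDAIR* in both, 6 were lower in both, and 20 had opposite signs (background 44.5%). A share this close to that of all genes is not a result about the members.

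Some members, including a few named above, are described next by the library with their lowest or highest value. Such a library need not stand apart from the rest. *SAUR23*, for example, had 21.2 FPKM in replicate 1 of the overexpressor and 21.6 FPKM in replicate 1 of Col-0. In replicate 1 of the overexpressor, *SAUR1*, *SAUR3*, *SAUR66*, *SAUR76* and *SAUR12* had their lowest value of the 4 libraries. The same was true of *SAUR19*, *SAUR22*, *SAUR23*, *SAUR27*, *SAUR51*, *SAUR61* and *SAUR67*. The share over all genes was not counted, so this is not a result about the members. *SAUR1* had 15.9 and 16.3 FPKM in Col-0 against 11.9 and 15.7 FPKM in the overexpressor, and *SAUR3* had 9.94 and 9.73 FPKM against 6.44 and 9.42 FPKM. *SAUR66* had 24.8 and 26.3 FPKM against 17.7 and 26.8 FPKM. Their log2 differences were -0.22, -0.30 and -0.22, and within replicate 2 alone they were -0.06, -0.04 and 0.02. *SAUR51* and *SAUR53* were high in replicate 1 of Col-0. *SAUR51* had 7.02 FPKM there against 3.65 to 4.39 FPKM elsewhere, and *SAUR53* had 6.66 FPKM against 3.77 to 5.05 FPKM. *SAUR9*, with 2.69 and 3.04 FPKM in Col-0 against 4.62 and 3.13 FPKM in the overexpressor, was highest in replicate 1 of the overexpressor. *SAUR72* and *SAUR59* were lower in replicate 2 of both genotypes, *SAUR72* at 2.36 to 3.23 FPKM and *SAUR59* at 14.8 to 18.9 FPKM over all libraries. *SAUR65*, between 17.4 and 22.6 FPKM, *SAUR27*, between 6.08 and 8.08 FPKM, and *SAUR28*, between 6.01 and 9.67 FPKM, had no call in either comparison.

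**Figure D3:**
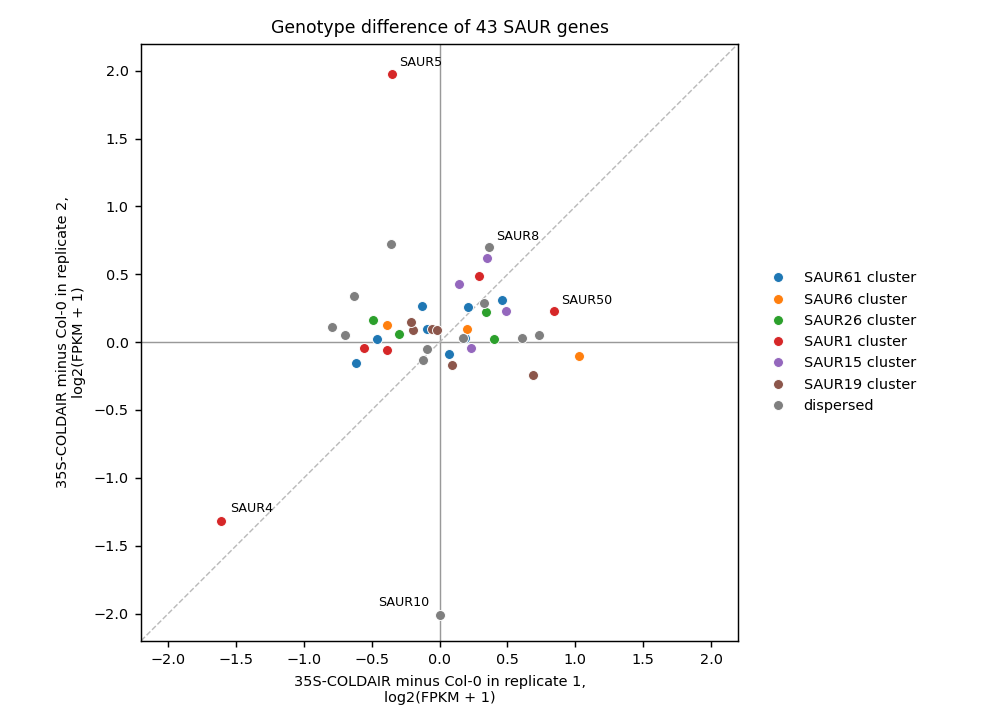
Genotype difference of the 43 compared members in log2(FPKM + 1), replicate 1 on the x axis and replicate 2 on the y axis, coloured by cluster, with names for differences of at least 0.5 in size and the dashed line for equal values. *SAUR4* lies near the line at -1.61 and -1.32, while *SAUR5* and *SAUR10* are far from 0 in replicate 2 only.

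The second comparison set replicate 2 against replicate 1 over both genotypes, with genotype as a term, because same-numbered libraries could be followed across the genotypes. Here some members differed in the same direction in both genotypes, and 15 of 43 had opposite signs (34.9%, background 37.2%). That share is near the one of all genes and is not a result about the members. Over the 43 members, the replicate differences in Col-0 and in *35S-COLDAIR* correlated only at 0.22. Replicate 2 was higher for *SAUR78* and *SAUR63* and lower for *SAUR32* and *SAUR6*, which are the 4 of 43 members (2 in each direction) past an adjusted p of 0.05 in limma (background 3.86%, with 2.01% higher and 1.85% lower). An unadjusted p under 0.05 was reached by 19 members, 10 higher (background 8.46%) and 9 lower (background 9.43%), together 44.2% against 17.9% of all tested genes. The median log2 difference was 0.02, with a range from -0.70 to 1.01, the upper end being that of *SAUR10*. In size the median was 0.29 in the members, 0.28 in the other *SAUR* genes and 0.11 in all tested genes.

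*SAUR78*, the highest dispersed member, had the largest difference of the 4. Replicate 1 was at 34.1 FPKM in Col-0 and 57.0 FPKM in *35S-COLDAIR*, and replicate 2 at 86.2 and 89.2 FPKM. Its log2 difference reached 0.97 (standard error 0.162; limma adjusted p = 0.0470), with 1.31 in Col-0 and 0.64 in *35S-COLDAIR*. The gene thus differed between replicates in both genotypes, but by unequal amounts that were not tested against each other.

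*SAUR63* had 26.3 and 39.9 FPKM in Col-0 against 36.7 and 49.8 FPKM in the overexpressor. Its log2 difference was 0.51 (standard error 0.0732, adjusted p = 0.0334 from limma). Within its cluster, *SAUR62*, *SAUR64*, *SAUR66* and *SAUR67* were also higher in replicate 2 of both genotypes, at log2 differences between 0.18 and 0.40, and did not pass the threshold. The other 3 genes of the cluster had negative differences, -0.37 for *SAUR68*, which was lower in replicate 2 of both genotypes, -0.16 for *SAUR65* and -0.08 for *SAUR61*, and did not pass either. *SAUR67*, which shares the long run of bases with *SAUR63*, had 30.4 and 32.3 FPKM in Col-0 against 28.4 and 34.6 FPKM in the overexpressor, a log2 difference of 0.18 (standard error 0.0796). Summed over the cluster, replicate 1 was at 155 and 160 FPKM and replicate 2 at 179 and 202 FPKM.

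*SAUR32* had 54.8 and 38.4 FPKM in Col-0 against 50.4 and 35.0 FPKM in the overexpressor. Its log2 difference of -0.51 (standard error 0.0629; limma adjusted p = 0.0253) was nearly equal in the genotypes, at -0.50 and -0.52. *SAUR6* had 48.6 and 34.6 FPKM in Col-0 against 56.2 and 37.0 FPKM in the overexpressor, with a log2 difference of -0.53 (standard error 0.0674, adjusted p = 0.0261 from limma). The overlapping *SAUR7* went the other way, with 2.91 and 8.64 FPKM in Col-0 against 6.99 and 7.97 FPKM in the overexpressor, a log2 difference of 0.73 (standard error 0.275, adjusted p = 0.261 from limma).

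*SAUR19* was just outside the threshold. It had 15 and 20.5 FPKM in Col-0 against 12.9 and 21.9 FPKM in the overexpressor, a log2 difference of 0.57 (standard error 0.103, adjusted p = 0.0583 from limma). Its closest copy, *SAUR24*, had a difference of 0.01 (standard error 0.221), from 0.48 in Col-0 and -0.46 in *35S-COLDAIR*. *SAUR29* was lower in replicate 2, with a log2 difference of -0.68 (standard error 0.159, adjusted p = 0.105 from limma), while *SAUR26* in the same array had a difference of 0.39 (standard error 0.123). *SAUR71*, with 5.97 and 1.94 FPKM in Col-0 against 4.43 and 3.84 FPKM in the overexpressor, had a difference of -0.70 (standard error 0.271). *SAUR4* differed by -0.52 (standard error 0.124; limma adjusted p = 0.111), and the difference of *SAUR10* was 1.01 and rests on the same library as its genotype difference. In all, 10 members reached 0.5 in size (background 6.45%), 5 of them higher (background 3.25%) and 5 lower (background 3.2%). *SAUR10*, compared only because of that single library, is among the 5 higher.

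By library, 21 of the 43 members did not overlap between the replicates, 12 higher and 9 lower in replicate 2, near the background of 47.3% (22.4% higher and 24.9% lower). Replicate 2 was higher in both genotypes for 16 members and lower in both for 11, and 15 had opposite signs (background 37.2%). The *SAUR15* cluster was the only one whose tested genes all had a negative difference, from -0.35 for *SAUR14* to -0.11 for *SAUR15*, and its sum was lower in replicate 2 of both genotypes, at 153 against 172 FPKM in Col-0 and 172 against 218 FPKM in the overexpressor. The *SAUR1* cluster sum was higher in replicate 2 of both genotypes, with 101 and 126 FPKM in Col-0 against 120 and 145 FPKM in the overexpressor. The *SAUR26* cluster sum was lower in replicate 2, with 64.3 and 46.6 FPKM in Col-0 against 56.0 and 50.8 FPKM in the overexpressor. The *SAUR6* cluster sum was also lower, with 52.7 and 44.5 FPKM in Col-0 against 63.8 and 46.5 FPKM in the overexpressor. A sum follows its highest genes more than the others. In the *SAUR6* cluster 2 of 3 genes were higher in replicate 2 of both genotypes and 1 was lower. In the *SAUR26* cluster 2 of 4 were higher and 2 lower, and in the *SAUR1* cluster 3 of 6 tested were higher and 1 lower. Over all 45 members the sums were 863 and 911 FPKM in Col-0 against 956 and 981 FPKM in the overexpressor.

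The 4 replicate calls depended on the model. With no filter on low values, with no variance trend, and with no genotype term, 0 of the 4 passed in limma, at smallest adjusted p-values of 0.0738, 0.164 and 0.0677. With a pseudocount of 0.1 in place of 1, *SAUR78* did not pass (adjusted p = 0.0562 from limma) and the other 3 genes did.

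**Figure D4:**
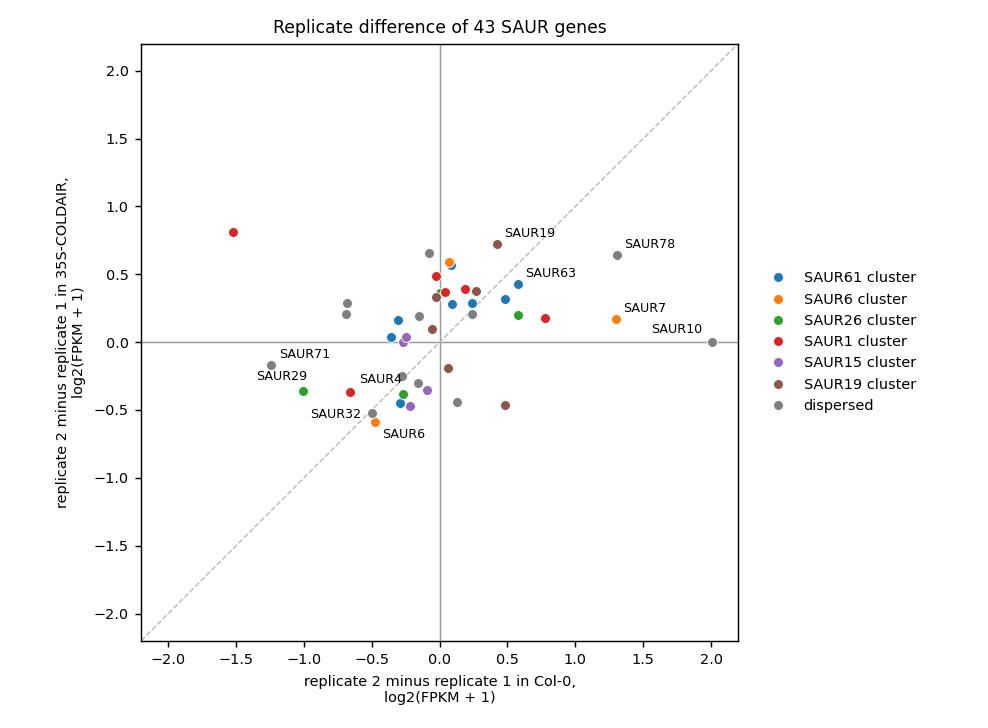
Difference of replicate 2 minus replicate 1 in log2(FPKM + 1) for the 43 compared members, Col-0 on the x axis and *35S-COLDAIR* on the y axis, coloured by cluster, with names for differences of at least 0.5 in size and the dashed line for equal values. *SAUR32*, *SAUR6* and *SAUR63* lie near the line, and *SAUR78* lies at 1.31 and 0.64.

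**Figure D5:**
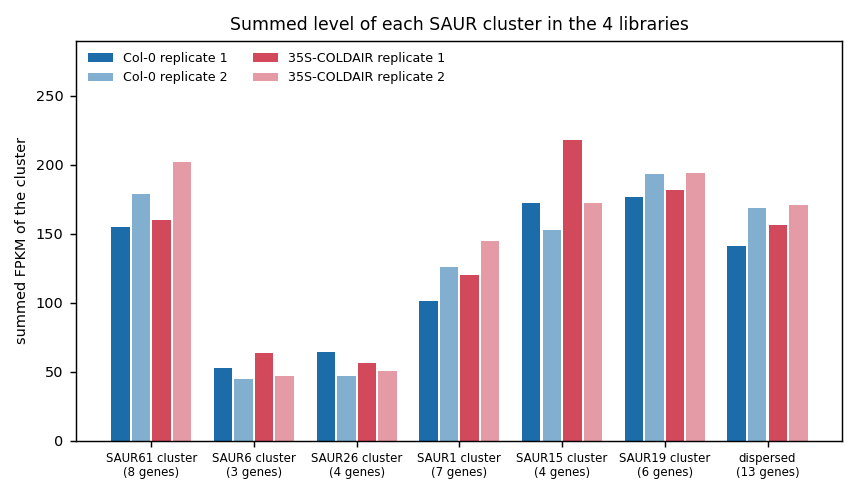
Summed FPKM of each cluster in the 4 libraries, with full colours for replicate 1, pale colours for replicate 2, blue for Col-0 and red for *35S-COLDAIR*. The sums of the *SAUR61* and *SAUR1* clusters are higher in replicate 2 of both genotypes, and those of the *SAUR6*, *SAUR15* and *SAUR26* clusters are lower. Single genes of a cluster can go against its sum. The *SAUR19* cluster has 177 and 182 FPKM in replicate 1 and 193 and 194 FPKM in replicate 2.

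The members with the E-box and those without it were set side by side as a description. The 27 with it had a median mean level of 15 FPKM and the 18 without it of 10.5 FPKM. The median genotype difference was 0.05 with and 0.09 without the E-box. The median replicate difference was -0.03 with and 0.23 without it, over ranges from -0.68 to 0.57 and from -0.70 to 1.01. The upper end of 1.01 is that of *SAUR10*. Called genes were in both groups, *SAUR63* and *SAUR6* with the E-box and *SAUR78* and *SAUR32* without it.

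The partners of SAUR proteins were followed in the same fits. None of the genes in the lists of PP2C.D phosphatases, proton pumps, auxin receptors, activating ARF factors, growth transcription factors, early auxin *GH3* genes, auxin synthesis genes or clock genes passed the threshold between the genotypes in limma. Of 9 PP2C.D phosphatase genes, 2 were called higher in replicate 2 (background 2.01%) and 0 lower (background 1.85%), past an adjusted p of 0.05 in limma. *PP2C.D1* had 49.2 and 82.3 FPKM in Col-0 against 45.1 and 81.7 FPKM in the overexpressor, a log2 difference of 0.79 (adjusted p = 0.0113 from limma). *PP2C.D7* had 4.32 and 11 FPKM in Col-0 against 6.83 and 13.4 FPKM in the overexpressor, a log2 difference of 1.03 (adjusted p = 0.0232 from limma). Several SAUR proteins inhibit phosphatases of this family, which does not single out these 2 genes. The other 7 genes had differences between -0.05 and 0.33.

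The plasma membrane proton pumps were even. Of the 9 tested *AHA* genes 0 passed between replicates, with log2 differences between -0.20 and 0.18, and the highest, *AHA1*, had 213 and 202 FPKM in Col-0 against 213 and 203 FPKM in the overexpressor. Among the 6 auxin receptor genes, *AFB1* was higher in replicate 2 (31.3 and 47.4 FPKM in Col-0, 35.3 and 50.4 FPKM in the overexpressor), at a log2 difference of 0.54 (adjusted p = 0.0253 from limma), and *AFB3* was lower, at -0.49 (adjusted p = 0.0379 from limma). *TIR1*, the highest of them, had a difference of -0.15. None of the 5 activating *ARF* genes passed, with differences between -0.24 and 0.14, and *ARF6* was the highest at 25.9 to 28.8 FPKM. None of the 8 growth transcription factor genes, 5 of them *PIF* genes, passed either, with differences between -0.28 and 0.18, and *BES1* was the highest of these at 145 to 174 FPKM.

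Among the auxin synthesis genes, 1 of 8 tested passed between replicates (background 3.86%). It was *YUC9*, which encodes an enzyme of the last step to auxin, with 2.56 and 8.21 FPKM in Col-0 against 3.12 and 7.29 FPKM in the overexpressor (log2 difference 1.19, adjusted p = 0.0243 from limma). *YUC8*, *YUC5* and *YUC2* had differences of 0.61, 0.55 and 0.52 and did not pass, and *TAA1*, the highest of the list, had a difference of -0.36. The *GH3* genes, which conjugate auxin and are early auxin targets like the members, had 0 of 6 past the threshold (background 3.86%). *GH3.6*, the highest, differed by 0.17, and *GH3.3* by 0.52.

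Of the lists, the clock genes had the largest share of calls between the replicates. In replicate 2, 3 of 10 were higher (background 2.01%) and 3 lower (background 1.85%) past an adjusted p of 0.05 in limma, and none of the 10 overlapped between the replicates (background 47.3%). The morning gene *CCA1* had 51.6 and 27.8 FPKM in Col-0 against 44.3 and 23.6 FPKM in the overexpressor. *LHY* and *PRR9* were likewise lower, by log2 differences of -1.04 and -1.31. *LUX*, *PRR5* and *ELF4*, which peak later in the day, were higher, by 0.68, 0.55 and 0.51. *PRR7*, the highest of the list, differed by 0.14. Between the genotypes 0 of the 10 passed in limma and 0 had an unadjusted p under 0.05 (background 2.59%), and the libraries of all 10 overlapped (29.1% of all tested genes did not). Each of the 10 nevertheless had the same sign in both replicates (44.5% of all tested genes had opposite signs), with *LHY* at -0.59, *CCA1* at -0.22, *LUX* at 0.52 and *PRR5* at 0.45. Many *SAUR* genes are known to follow the time of day, and the part of these clock values in the genotype and replicate differences of the members was not tested.

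The 11 replicate calls among the list genes depended on the model as those of the members did. With no filter on low values and with no variance trend, 0 of the 11 passed in limma, and with no genotype term *PP2C.D1*, *PRR9* and *YUC9* did. With a pseudocount of 0.1, *ELF4* alone of the 11 did not pass. Of the root genes, *EXPA7* differed by -0.53 between the genotypes and *NRT2.1* by 0.80 between the replicates, and neither passed in limma.

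In the rest of the family no gene passed. Of the 33 other *SAUR* genes in the reference 22 were tested, and 0 passed in limma between genotypes, with 0 at an unadjusted p under 0.05, or between replicates, with 6 at an unadjusted p under 0.05. *SAUR31*, the highest, had 45.5 and 41.3 FPKM in Col-0 against 50.7 and 38.4 FPKM in the overexpressor, and *SAUR55*, *SAUR57*, *SAUR60* and *SAUR52* followed with means between 4.88 and 19.9 FPKM. *SAUR57* had a replicate difference of -0.43 (adjusted p = 0.163 from limma). The gene AT5G01830, which carries a *SAUR* name in the reference but encodes an ARM-repeat protein, was left out of this comparison.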

How the data were processed

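The authors isolated poly-A RNA from 12-day-old seedlings and made libraries with the ScriptSeq Complete Kit (Plant). Per the study's methods, TopHat 2.1.0 placed the cleaned reads on TAIR10 with no more than 2 mismatches, and cuffdiff 2.0.1 compared them. The submitters' processing notes instead name STAR 2.5.2b, with Cuffdiff and TAIR10. The deposited values are FPKM per gene and library, in 2 tables of 33854 genes that each hold 1 library per genotype. The gene annotation, strand setting, treatment of multiply mapped reads and normalization mode are not given in the sources used here. Libraries were assigned by the genotype and replicate number in the column names; the names of the tables carry the other replicate number.

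Genes averaging 0.5 FPKM or more (20142) were compared as log2(FPKM + 1), a scale that understates changes of low genes. The test was limma 3.58.1 (R 4.3.3; functions lmFit and eBayes, trend on) with Benjamini-Hochberg adjustment over all of them at 0.05. The genotypes were compared without a block, and the replicates with genotype as a term. An exact permutation test of 2 against 2 libraries cannot go below p = 0.333. The fits were tested on simulated data. The alternatives tried changed the pseudocount (0.1), the filter (none, or 1 FPKM), the scaling (quantile normalization or median centring), the variance trend, the genotype term and the block, or dropped each library once. The 45 members all matched the reference table. Coding and promoter sequences come from the RefSeq TAIR10.1 genome and annotation, read with Biopython 1.88. All members are accounted for by cluster, with library values for those that reached 0.5 in size in either comparison and for the highest of each cluster. List genes are counted, and named where they reached 0.5 in size or were the highest of their list, except that leaf and root markers are otherwise given as sums. Members and lists were chosen with earlier results of these data known. *SAUR13*, *SAUR15*, *SAUR36* and *SAUR49* were picked out after their values were seen. So were the members described by their lowest or highest library and the genes in the promoter display.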

Additional observations from a re-analysis of the deposited data

How the results depend on the processing

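Between the genotypes, 0 members passed under every alternative run, and the number of all genes past the threshold was 0 to 1 when single libraries were dropped, against 2 with all 4 libraries. Under the replicate block the number of all genes rose to 7 (0.0348%), and 0 members passed, with 10 at an unadjusted p under 0.05 (7.98% of all genes) and a smallest adjusted p of 0.0867 (*SAUR4*) from limma. *FLC* passed with the block (adjusted p = 0.00349 from limma) and not without it (0.0835), and 0 of the 72 list genes passed, with 4 of the 10 clock genes at an unadjusted p under 0.05. The deviations of same-numbered libraries correlated at 0.37 over the tested genes, so these libraries shared part of their deviations. What they had in common is not in the labels, and there are only 2 pairs. Without the block, this shared part stays in the error of the genotype test. With single libraries dropped, the genotype difference was followed gene by gene in a selection of the members only. Among these, it changed sign for *SAUR6* (-0.14 to 0.44), *SAUR7* (-0.19 to 1.12), *SAUR16* (-0.08 to 0.27) and *SAUR19* (-0.41 to 0.30). The same held for *SAUR21* (-0.03 to 0.07), *SAUR29* (-0.67 to 0.34), *SAUR32* (-0.38 to 0.13), *SAUR71* (-0.44 to 0.80) and *SAUR78* (-0.27 to 1.04). It kept its sign for *SAUR4*, *SAUR5*, *SAUR8*, *SAUR50* and *SAUR63*, and for *SAUR10* it was 0.00 without replicate 2 of Col-0. The remaining members were not followed in this way, so their differences may change sign too.

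Between the replicates, 0 members passed with no filter, with no variance trend or with no genotype term, where 41, 3 and 135 of all genes passed in place of 777. Quantile normalization and median centring added *SAUR19* to the 4 called members (adjusted p = 0.0394 and 0.0477 from limma). The median difference of the members lay between -0.03 and 0.18 when single libraries were dropped, which leaves no residual for a test. The cause of these changes was not tested. Depth per value is unknown, so low members such as *SAUR8*, *SAUR10* and *SAUR68* carry the least certain differences.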
